A study of Mus musculus with 32 samples.

Results

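The genes described here are 31 genes of cholesterol and fatty acid synthesis that are controlled by the sterol regulatory element-binding proteins (SREBPs), taken by symbol from the 55401 gene identifiers of the count data. They comprise 17 enzymes of the sterol synthesis arm, 10 genes of the fatty acid synthesis arm, and 4 genes of regulation and transport (Srebf1, Srebf2, Insig1 and Stard4). Their transcripts were followed in liver of COX10 KO and CTL mice, with calf muscle and hypothalamus for comparison.

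The COX10 KO mouse is a model of mitochondrial myopathy on the C57BL/6 background. Floxed alleles of Cox10, an assembly factor of cytochrome c oxidase, are deleted in its skeletal muscle by Cre under the control of Myl1, a gene of the muscle fibre, so that liver and hypothalamus are not targeted. CTL mice were of the same strain, with no further genotype in the labels, and all mice were 200 days old. By the labels, liver and calf muscle (gastrocnemius with soleus) came from 6 COX10 KO and 6 CTL mice each, with 3 females and 3 males per genotype, and hypothalamus came from 4 COX10 KO and 4 CTL males. The methods of the study describe the use of males only unless otherwise stated, which the labelled sexes of liver and muscle do not match, and the labels were followed here. For muscle proteins, the paper names littermates of the same age as controls, but the labels do not say which mice shared a litter. Nothing states that a mouse gave 1 tissue only, or that groups were drawn from separate litters, so p-values measure the spread between these samples. Each library was made from the 3′ ends of polyadenylated RNA, so a transcript yields about 1 tag whatever its length.

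SREBPs are membrane-bound transcription factors that are released from the endoplasmic reticulum when sterols run low and then switch on the genes of sterol and fatty acid synthesis. Srebf2 encodes SREBP2, which chiefly drives the sterol genes, and Srebf1 encodes SREBP1, whose main liver form chiefly drives the fatty acid genes and is induced by insulin. Liver is a principal site of both pathways, and feeding raises and fasting lowers them.

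The DNA just upstream of the members' start sites is shown first, since SREBPs act there together with the factors NF-Y and Sp1. RefSeq promoter windows (GRCm38.p6, 250 bases before to 50 bases after a start site, 300 bases in all) were matched for 25 of the 31 members, in 30 windows. The NF-Y motif CCAAT, on either strand, was in 23 of the 30 windows, compared with 37.4% of 32544 windows of all genes. The Sp1 motif GGGCGG was in 20 of 30, compared with 35.9% of all windows. The sterol regulatory element, searched as TCACNCCAC on either strand, was in 1 of 30, compared with 1.24% of all windows. Only this exact string was searched, so variants of the element were not counted and a window without a match may still hold one. The only matched member with the exact string was Hmgcs1, which makes HMG-CoA and had the smallest p of the sterol enzymes in liver. Mvd, which makes the isoprene unit of sterols, and Fasn, the multifunctional fatty acid synthase, are shown beside it because Mvd carries the muscle result and Fasn is a gene on which the COX10 KO livers split. Capitals mark these motifs as read on the gene's own strand, so CCAAT may stand as ATTGG and GGGCGG as CCGCCC, and in Fasn the last pair of CCAAT matches overlap. A match is a description of letters and not of a bound site.
Hmgcs1, chr13:119690101-119690400, plus strand: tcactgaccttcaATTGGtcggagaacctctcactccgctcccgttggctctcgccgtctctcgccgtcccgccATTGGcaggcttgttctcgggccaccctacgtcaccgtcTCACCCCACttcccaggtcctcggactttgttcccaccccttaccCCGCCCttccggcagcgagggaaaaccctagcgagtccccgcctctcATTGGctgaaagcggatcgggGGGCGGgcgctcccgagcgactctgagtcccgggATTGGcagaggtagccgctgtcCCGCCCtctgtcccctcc
Mvd, chr8:122443373-122443672, minus strand: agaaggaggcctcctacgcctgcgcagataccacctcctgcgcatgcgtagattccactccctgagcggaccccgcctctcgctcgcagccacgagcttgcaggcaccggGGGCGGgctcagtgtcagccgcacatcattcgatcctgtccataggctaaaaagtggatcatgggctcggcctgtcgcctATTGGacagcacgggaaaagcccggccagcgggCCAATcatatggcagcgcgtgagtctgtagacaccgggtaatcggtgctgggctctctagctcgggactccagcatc
Fasn, chr11:120824498-120824797, minus strand: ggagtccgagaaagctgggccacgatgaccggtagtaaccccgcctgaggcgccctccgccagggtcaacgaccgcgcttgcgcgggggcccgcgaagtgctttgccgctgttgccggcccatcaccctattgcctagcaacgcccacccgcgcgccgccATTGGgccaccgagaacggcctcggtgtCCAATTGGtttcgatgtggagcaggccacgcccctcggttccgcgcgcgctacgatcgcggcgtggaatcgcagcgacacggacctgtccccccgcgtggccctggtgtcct

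Total counts ran from 674311 to 3197080 in COX10 KO and from 1955599 to 16044634 in CTL livers, from 1734571 to 11404800 in COX10 KO and from 434494 to 8936522 in CTL muscles, and from 3526613 to 5684034 in COX10 KO and from 4070847 to 22321322 in CTL hypothalami. The sex-linked transcripts of 2 libraries, labelled CTL 1 and CTL 4 in liver, did not match their labelled sex, and the arm medians in liver are given with and without them. Cox10 itself had 95.1 to 140 CPM (read counts scaled within a tissue to a common library size by TMM) in COX10 KO muscles and 48.0 to 147 CPM in CTL muscles, but its 3′ tag may lie outside the deleted part and is no check of the labels. Myl1, the locus that carries the Cre, had 4232 to 8423 CPM in COX10 KO muscles and 6104 to 15124 CPM in CTL muscles (log2 fold change −1.06, adjusted p = 0.00836 by the edgeR quasi-likelihood test). The defining markers of each tissue were present, with a summed hepatocyte marker level of 74469 to 203500 CPM in COX10 KO livers and 75079 to 133770 CPM in CTL livers.

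Of the 31 members, 29 passed the filter on low counts in liver. Fdps, which makes farnesyl diphosphate, had 0 counts in all 32 libraries, and the annotation places the exons of Gm43738 over its 3′ end on the same strand. Whether this overlap took its reads was not tested. Idi1, which interconverts the isoprene units, had 16 counts in the 6 COX10 KO livers together and 190 counts in the 6 CTL livers, too few for the filter. These counts are not scaled for depth, and the mean was 1.24 CPM in COX10 KO and 4.04 CPM in CTL livers.

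In liver, the fitted levels of the sterol enzymes were lower in the COX10 KO group, but mice of 1 genotype differed widely and no member passed the test. All 15 sterol enzymes that passed the filter had a negative log2 fold change, between −1.19 and −0.25, with a median of −0.89, beside a median of −0.02 over all 9707 genes tested and 52.8% of all genes with a value below 0. The 10 fatty acid genes had a median of −0.30, with 8 below 0, and the 4 regulators had a median of −0.58, with all 4 below 0. The edgeR quasi-likelihood test with sex as a covariate called 0 members higher and 0 lower at an adjusted p under 0.05, against 0.0206% of all genes called higher and 0.0721% called lower. At an unadjusted p under 0.05, 9 members were lower and 0 higher, against 2.93% of all genes lower and 2.05% higher. DESeq2, too, called 0 members and had 9 lower at the unadjusted threshold. Of the 20215 genes it tested, 458 were lower and 397 higher at that threshold. No member had all COX10 KO livers below or above all CTL livers, against 0.247% of all genes below and 0.196% above.

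**Figure D1:**
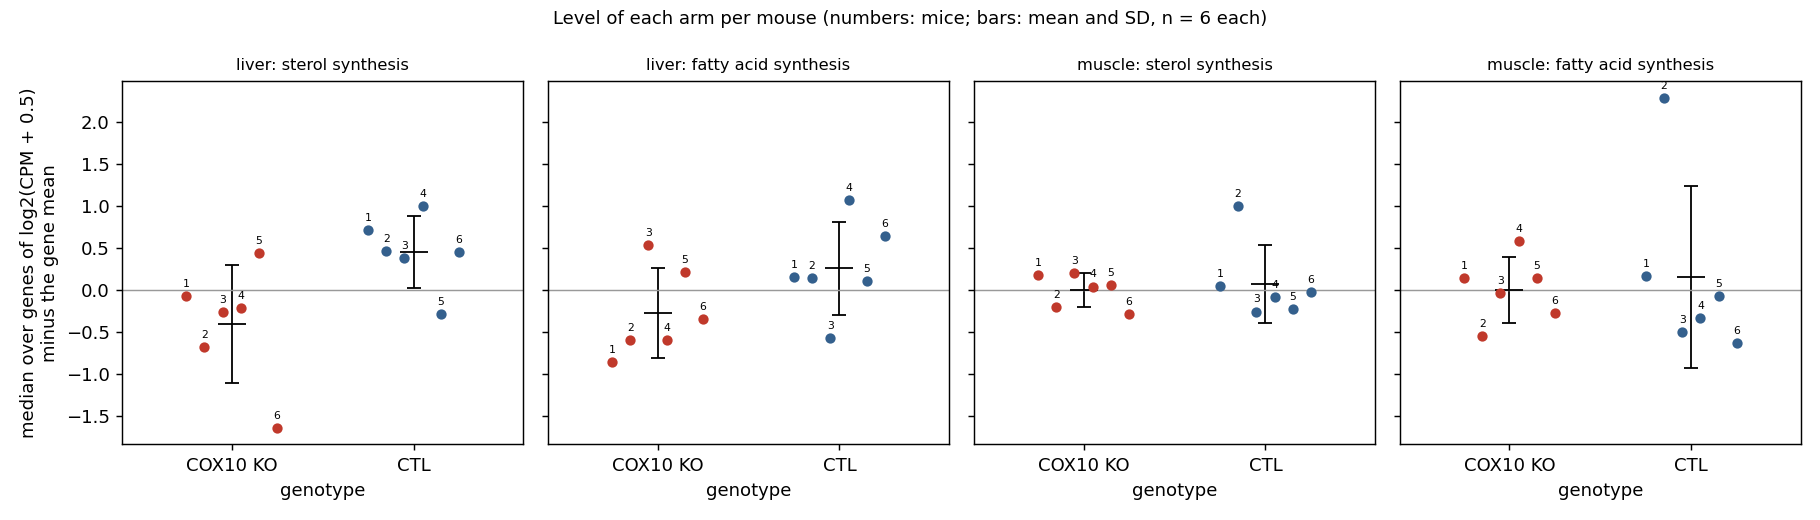
Level of each arm per mouse, as the median over its tested genes of log2(CPM + 0.5) minus the gene's mean over the tissue, for liver and muscle. Numbers are mice, and bars are the mean and SD of 6 mice. In the sterol panel of liver, COX10 KO mouse 6 lies lowest at −1.64 and CTL mouse 4 highest at 1.00, and in the fatty acid panel of muscle, CTL mouse 2 stands alone at 2.29.

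Single livers stood at the ends of the range for most sterol enzymes. On the centred log2 scale of the plot of arm levels, it averaged −0.40 ± 0.70 in COX10 KO livers and 0.45 ± 0.43 in CTL livers (SD, n = 6 each). COX10 KO mouse 6 was the lowest of the 12 livers for 12 of the 15 sterol enzymes, and the other 3 were lowest in COX10 KO mice 1 and 3. CTL mouse 4, one of the libraries with a sex mismatch, was the highest for 8 of the 15, and CTL mouse 1, the other one, for 3. The groups overlapped all the same, because COX10 KO mouse 5 stood at 0.44 and CTL mouse 5 at −0.28.

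The size of the arm's median log2 fold change varied with the livers left out, but its sign did not. With 1 library left out, it ran from −1.02 without COX10 KO 5 to −0.65 without CTL 4, and was also −0.65 without COX10 KO 6. It was −0.58 without both mismatched CTL livers. Without these and COX10 KO 6 it was −0.41, and these 3 libraries were picked with the data in view. In the last of these the 15 enzymes were all below 0, and 0 members had an unadjusted p under 0.05. Of the 9801 genes in that fit, 267 were lower and 178 higher at that unadjusted p. With sex read from the transcripts, 11 members were lower at an unadjusted p under 0.05 and 0 were called. Of the 9707 genes in that run, 361 were lower and 330 higher at the unadjusted threshold, and 20 were called lower and 8 higher.

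At the entry to the pathway, Hmgcs1 (HMG-CoA synthase, ENSMUSG00000093930) ran from 113 CPM over a median of 340 to 570 CPM in COX10 KO livers, and from 283 over 730 to 1028 CPM in CTL livers. Its 3 lowest COX10 KO livers lay below every CTL liver, and CTL mouse 5 lay among the COX10 KO mice. The log2 fold change was −1.19 ± 0.42 (SE; unadjusted p = 0.0131, adjusted p = 0.766 by edgeR). Hmgcs1 also has an antisense overlap, with Gm48342.

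Fdft1, the squalene synthase that commits isoprene units to sterols, ran from 28.4 over 69.2 to 114 CPM in COX10 KO livers and from 66.9 over 120 to 223 CPM in CTL livers. Here, too, 3 COX10 KO livers lay below all CTL livers, and the log2 fold change was −0.92 ± 0.34 (SE; unadjusted p = 0.0174, adjusted p = 0.838 by edgeR). An antisense exon of Ctsb overlaps Fdft1, and as the strand setting of the counting is not given in the sources used here, their reads cannot be told apart.

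Further down, Tm7sf2, a sterol C14 reductase, ran from 4.91 over 8.57 to 15.8 CPM in COX10 KO livers and from 6.43 over 18.6 to 24.0 CPM in CTL livers. Dhcr7, which makes cholesterol in the last step of one branch, ran from 17.2 over 44.5 to 62.2 CPM in COX10 KO livers and from 45.0 over 73.7 to 113 CPM in CTL livers, with 4 COX10 KO livers below all CTL livers. Their log2 fold changes were −0.89 ± 0.35 and −0.91 ± 0.34 (SE; unadjusted p = 0.0214 and 0.0179, adjusted p = 0.863 and 0.839 by edgeR). An exon of Vps51 overlaps Tm7sf2 on the same strand, outside the last 500 bases of Tm7sf2.

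The other sterol enzymes with an unadjusted p under 0.05 were Sc5d, Msmo1 and Nsdhl, with log2 fold changes of −0.99, −0.84 and −0.90. Msmo1 and Nsdhl, which take the methyl groups at carbon 4 off the sterol ring, were the most clearly separated, each with 5 of the 6 COX10 KO livers below all CTL livers. The smallest differences among the sterol enzymes were those of Ebp and Hsd17b7, both at −0.25.

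**Figure D2:**
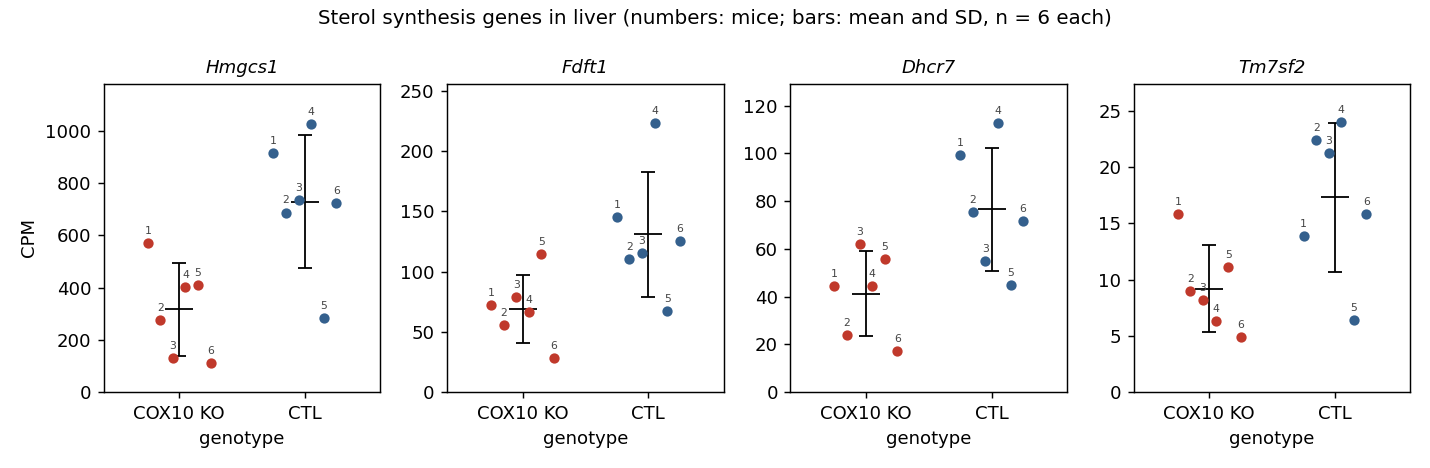
CPM of Hmgcs1, Fdft1, Dhcr7 and Tm7sf2 in each liver, COX10 KO beside CTL. Numbers are mice, and bars are the mean and SD of 6 mice. The groups overlap in every panel, with COX10 KO mouse 6 lowest for each gene and CTL mouse 5 lowest of the CTL mice.

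Among the regulators, Srebf2 was near equal in the genotypes, from 8.76 over 24.2 to 31.1 CPM in COX10 KO livers and from 12.0 over 21.3 to 35.1 CPM in CTL livers. Its log2 fold change was −0.10 ± 0.30 (SE; adjusted p = 0.997 by edgeR), and its sign turned when COX10 KO 6, CTL 2 or CTL 4 was left out. Srebf1 ran from 0 over 20.9 to 43.6 CPM in COX10 KO livers and from 8.67 over 44.2 to 127 CPM in CTL livers. The library with no Srebf1 count was COX10 KO mouse 3, the shallowest liver, where a count of 0 allows up to 4.91 CPM (3 counts). The log2 fold change of Srebf1 was −1.28 ± 0.69 (SE; unadjusted p = 0.0854, adjusted p = 0.997 by edgeR), and it was −0.81 without CTL 6.

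Insig1, which holds SREBPs in the endoplasmic reticulum and is itself an SREBP target, ran from 2.45 over 18.0 to 32.8 CPM in COX10 KO livers and from 20.4 over 25.7 to 31.8 CPM in CTL livers. The CTL livers were tightly grouped, whereas the COX10 KO livers reached on both sides of them. Stard4, a carrier of cholesterol between membranes, ran from 29.5 over 45.1 to 88.7 CPM in COX10 KO livers and from 37.7 over 68.7 to 145 CPM in CTL livers. The log2 fold changes of Insig1 and Stard4 were −0.49 ± 0.44 and −0.67 ± 0.33 (SE; unadjusted p = 0.286 and 0.0614, adjusted p = 0.997 for each by edgeR). Insig1 was at −0.21 without COX10 KO 6, −0.32 without COX10 KO 2, −0.74 without COX10 KO 4 and −0.82 without COX10 KO 1.

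The fatty acid genes were more divided. Scd1, the desaturase that makes oleate, had a fitted difference that was the largest of all members with the 12 livers, from 220 over 533 to 987 CPM in COX10 KO livers and from 98.2 over 2037 to 4373 CPM in CTL livers. CTL mouse 3 was the lowest of all 12 livers and CTL mouse 2 lay within the COX10 KO range, while the other 4 CTL livers were above every COX10 KO liver. The log2 fold change was −1.60 ± 0.59 (SE; unadjusted p = 0.0166, adjusted p = 0.838 by edgeR). Without CTL 1, one of the mismatched libraries, it was −1.04, smaller in size than that of Hmgcs1 (−1.13), and it was also −1.04 without both mismatched livers, where that of Srebf1 was −1.25. Scd1 was the single member called lower when no expression filter was used, at an adjusted p of 0.0226 by edgeR, and its adjusted p was higher than 0.05 in every other alternative run.

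Fads1 and Fads2, the desaturases of polyunsaturated fatty acids, lie close together on chromosome 19. Fads1 ran from 213 over 414 to 503 CPM in COX10 KO livers and from 471 over 521 to 910 CPM in CTL livers, with a log2 fold change of −0.66 ± 0.30 (SE; unadjusted p = 0.0438, adjusted p = 0.947 by edgeR). Fads2 ran from 152 over 177 to 248 CPM in COX10 KO livers and from 146 over 201 to 542 CPM in CTL livers, where mouse 3 held the highest value of both genes. Acacb, the acetyl-CoA carboxylase whose product restrains fatty acid entry into mitochondria, ran from 16.6 over 28.7 to 72.0 CPM in COX10 KO livers and from 14.9 over 52.6 to 83.1 CPM in CTL livers. The log2 fold changes of Fads2 and Acacb were −0.40 ± 0.31 and −0.75 ± 0.41 (SE; unadjusted p = 0.217 and 0.0871, adjusted p = 0.997 for each by edgeR). Fads2 was at −0.07 without CTL 3 and −0.61 without both mismatched livers, and Acacb was at −0.43 without CTL 4.

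The next 3 lipogenic genes were chosen after their values were seen, because the COX10 KO livers split on them. Fasn had 175, 195, 1694, 149, 1383 and 170 CPM in COX10 KO mice 1 to 6 and ran from 224 over 579 to 1654 CPM in CTL livers. Thrsp, a lipogenic co-factor of liver and fat, had 62.7, 46.5, 820, 44.6, 695 and 82.4 CPM in COX10 KO mice 1 to 6 and ran from 187 over 268 to 652 CPM in CTL livers. Mice 3 and 5, a female and a male by their labels, were above the highest CTL liver for Thrsp, and the other 4 were below all CTL livers for both genes.

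Acaca, the carboxylase that supplies malonyl-CoA to fatty acid synthase, was also highest among COX10 KO livers in mice 3 and 5, at 226 and 186 CPM. The fitted log2 fold changes of Fasn, Thrsp and Acaca were −0.06 ± 0.71, −0.18 ± 0.74 and 0.31 ± 0.43 (SE). The median of the fatty acid arm was −0.71 without COX10 KO 3, −0.14 without CTL 4 and −0.10 without both mismatched CTL livers. Elovl5, an elongase of polyunsaturated fatty acids, was led by another mouse, with 3159 CPM in COX10 KO mouse 6, the mouse lowest for most sterol enzymes, and 350 to 1074 CPM in the other COX10 KO livers.

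**Figure D3:**
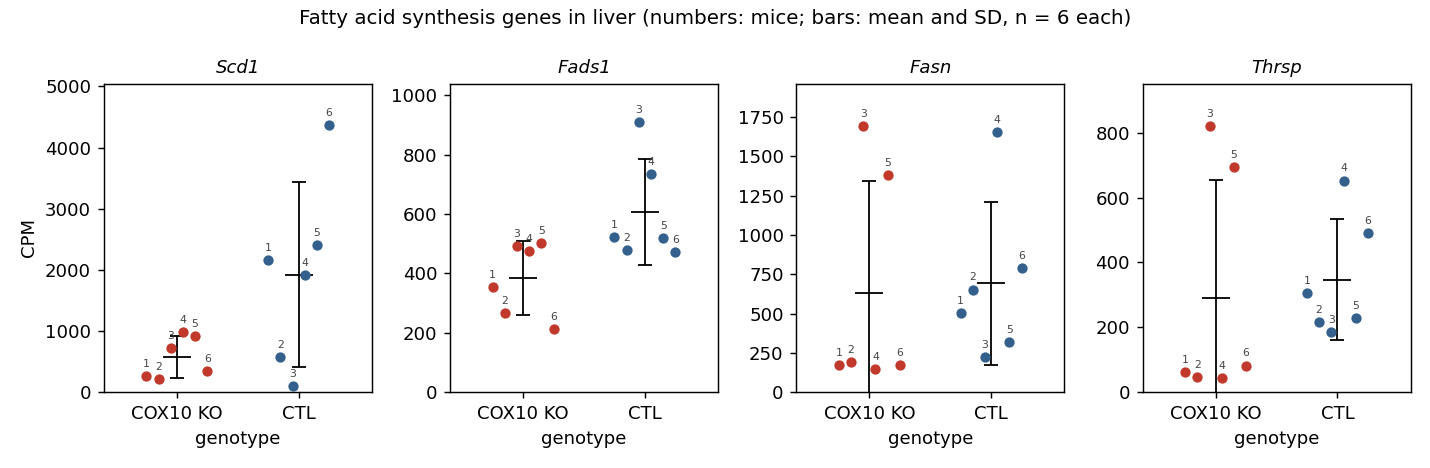
CPM of Scd1, Fads1, Fasn and Thrsp in each liver, COX10 KO beside CTL. Numbers are mice, and bars are the mean and SD of 6 mice, with the lower SD bars of Fasn and Thrsp in COX10 KO livers ending at the axis. COX10 KO mice 3 and 5 stand apart from the other 4 for Fasn and Thrsp, and CTL mouse 3 is the lowest liver for Scd1.

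Markers of other cells also differed between the livers. The summed level of 10 macrophage markers, all of them detected, was 207 to 687 CPM in COX10 KO livers and 285 to 1599 CPM in CTL livers, and all 10 had a log2 fold change below 0, with a median of −1.52. The summed level of 7 skeletal muscle fibre markers was 646 CPM in COX10 KO mouse 6, 133 CPM in COX10 KO mouse 4, 1.28 to 11.5 CPM in the other COX10 KO livers and no more than 32.7 CPM in CTL livers. The part of these cells in the sterol result was not tested. In bulk tissue, fewer cells of a type and less RNA per cell cannot be told apart.

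The genotype difference was also compared between the sexes in liver, with 3 mice per genotype and sex. The interaction term called 0 members by edgeR, with 0 at an unadjusted p under 0.05 and 0 calls by DESeq2. Of all genes, 0.0% were called, and 0.668% were higher and 0.558% lower at that unadjusted p. With sex read from the transcripts, the interaction term also called 0 members, with 0 at an unadjusted p under 0.05, while 1 of 10030 genes was called higher and 0 lower. The sterol median was −0.82 in females alone and −0.76 in males alone, and the fatty acid median was −0.16 in females alone and −0.62 in males alone. These medians follow the labelled sex, which the sex-linked transcripts contradict for 1 CTL mouse of each sex.

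Lists of related genes, chosen like the members with earlier results of these data known, had 0 calls in liver by edgeR and 3 by DESeq2 (Pltp, Cyp4a14 and Cyp4a10). Of 17 tested further SREBP pathway genes, 15 had a log2 fold change below 0, 5 were lower and 1 higher at an unadjusted p under 0.05, and their median was −0.52. The smallest p were those of Rdh11, a retinal reductase, and Aacs, which activates acetoacetate for lipid synthesis, at −1.56 and −1.17 (adjusted p = 0.653 and 0.851 by edgeR). Of 8 genes of the carbohydrate response factor ChREBP, 4 were below 0 and 4 above, with a median of −0.01. Tkfc, an enzyme of fructose metabolism, had a fitted difference of 0.84 (adjusted p = 0.997 by edgeR).

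Of 9 genes of the oxysterol receptor LXR, 5 were below 0, with a median of −0.16 and 2, Pltp and Abcg1, lower at an unadjusted p under 0.05. Pltp, a phospholipid transfer protein, had 3.27 to 14.1 CPM in COX10 KO livers and 13.6 to 42.7 CPM in CTL livers, with an adjusted p of 0.271 by edgeR and 0.0452 by DESeq2. Abcg1, a sterol exporter, differed by −1.48 on the log2 scale (adjusted p = 0.414 by edgeR). The 10 fasting genes controlled by PPAR-alpha were all above 0, with a median of 1.25 and 4 higher at an unadjusted p under 0.05.

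Cyp4a14 and Cyp4a10, fatty acid omega-hydroxylases, led the fasting list. Cyp4a14 ran from 1474 over 3738 to 15243 CPM in COX10 KO livers and from 98.1 over 766 to 1639 CPM in CTL livers (log2 fold change 2.90 ± 0.68, SE; adjusted p = 0.189 by edgeR and 8.86e-04 by DESeq2). Cyp4a10 ran from 1025 over 2707 to 10130 CPM in COX10 KO livers and from 273 over 808 to 1427 CPM in CTL livers (log2 fold change 2.39 ± 0.59, SE; adjusted p = 0.242 by edgeR and 0.00504 by DESeq2). The highest value of both was in COX10 KO mouse 6.

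In muscle, where Cox10 was deleted, the sterol arm as a whole did not differ in one direction. Of 26 members that passed the filter, edgeR called 1 higher, Mvd, and 1 lower, Srebf1, at an adjusted p under 0.05, against 6.9% of all 11636 genes called higher and 7.43% called lower. The members' share of calls was thus not above that of all genes. Of 13 sterol enzymes tested, 7 were below 0, against 52.0% of all genes, with a median of −0.02, and the 10 fatty acid genes had a median of −0.23, beside −0.03 over all genes. Fdps, Idi1, Sqle, Tm7sf2 and Insig1 did not pass the filter.

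Mvd (ENSMUSG00000006517, chr8:122433601-122443422, minus strand) encodes mevalonate diphosphate decarboxylase, which makes isopentenyl diphosphate. It ran from 19.6 over 35.7 to 52.0 CPM in COX10 KO muscles and from 4.36 over 9.46 to 18.5 CPM in CTL muscles. All 6 COX10 KO muscles were above all 6 CTL muscles, as for 4.08% of all genes, and no member had all COX10 KO below all CTL muscles, as 2.31% of all genes did. Mvd rose by a log2 fold change of 1.56 ± 0.32 (SE), a fold of 2.95 (adjusted p = 0.00461 by edgeR, 1.14e-04 by DESeq2). The enzymes before it in the pathway were not called, with log2 fold changes of −0.02 for Hmgcs1, 0.19 for Mvk and −0.73 for Pmvk (adjusted p = 0.965, 0.755 and 0.0695 by edgeR), and a difference between Mvd and these genes was not tested.

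Srebf1 ran from 1.94 over 4.17 to 8.23 CPM in COX10 KO muscles and from 3.62 over 13.0 to 31.4 CPM in CTL muscles. The genotypes overlapped, with 3 COX10 KO muscles below all CTL muscles and CTL mice 3 and 6 within the COX10 KO range. Srebf1 fell by a log2 fold change of −1.66 ± 0.43 (SE), or 3.17-fold (adjusted p = 0.0187 by edgeR, 0.00332 by DESeq2). An antisense exon of Rai1 and a same-strand exon of Mir6922 overlap Srebf1. Without the strand setting of the counting, reads from the overlap with Rai1 cannot be told apart. The call was lost without CTL 1, at −1.50 and an adjusted p of 0.0527. Srebf2 and Stard4 had log2 fold changes of −0.82 and −1.21 (adjusted p = 0.0600 and 0.0976 by edgeR).

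**Figure D4:**
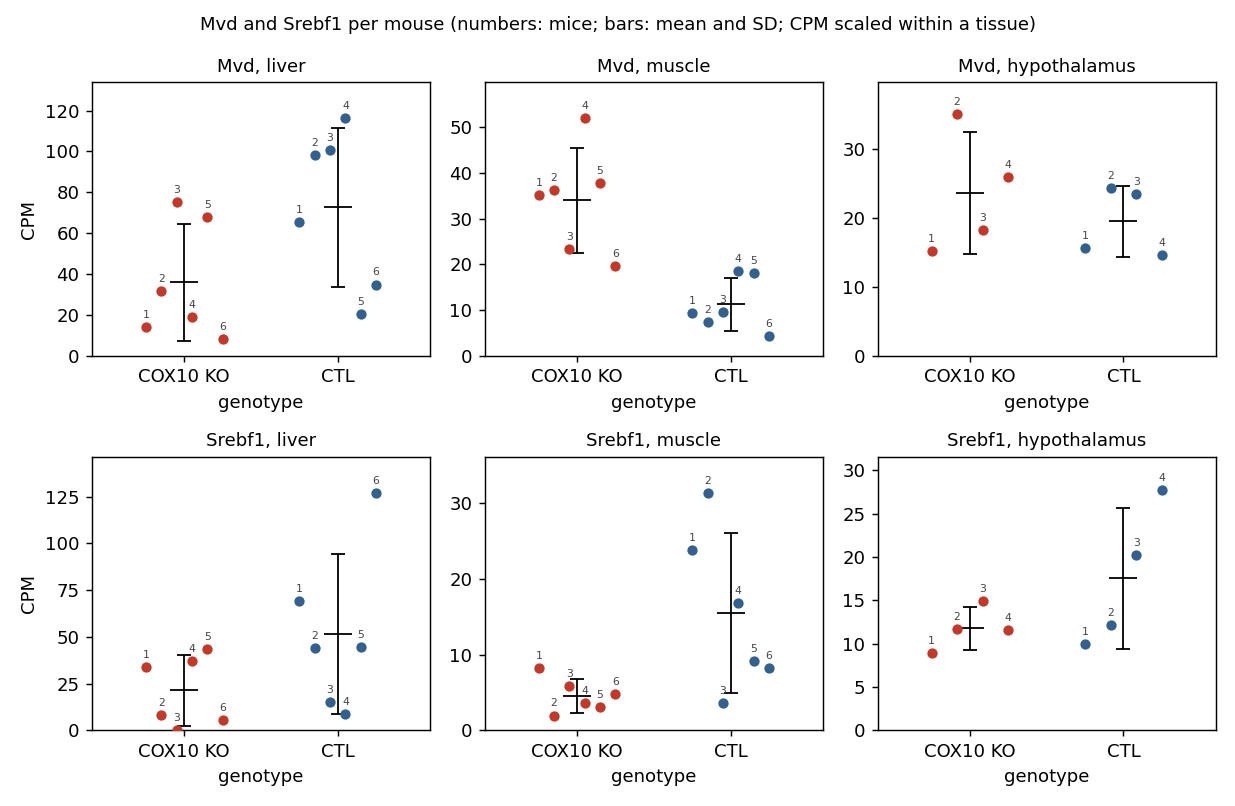
CPM of Mvd (upper row) and Srebf1 (lower row) per mouse in liver, muscle and hypothalamus, COX10 KO beside CTL, scaled within each tissue. Numbers are mice, and bars are the mean and SD of 6 mice (4 in hypothalamus). Mvd in muscle, at 19.6 to 52.0 CPM in COX10 KO and 4.36 to 18.5 CPM in CTL, is the only panel in which the genotypes do not overlap.

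The fatty acid genes in muscle rested on the library labelled CTL 2, the shallowest of the series. Fasn ran from 4.70 to 172 CPM in COX10 KO muscles, had 373 CPM in CTL 2 and ran from 15.8 to 93.0 CPM in the other CTL muscles. Scd1 ran from 25.1 to 249 CPM in COX10 KO muscles, had 1020 CPM in CTL 2 and ran from 24.0 to 106 CPM in the other CTL muscles. CTL 2 was the highest of the 12 muscles for 9 of the 10 fatty acid genes and for 9 of the 13 sterol enzymes. The summed level of 8 adipocyte markers was 801 to 2236 CPM in COX10 KO muscles, 5584 CPM in CTL 2 and 264 to 1130 CPM in the other CTL muscles. The summed level of 7 hepatocyte markers was 11.4 to 331 CPM in COX10 KO muscles, 2369 CPM in CTL 2 and 37.5 to 175 CPM in the other CTL muscles. Their part in the fatty acid values was not tested.

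Without CTL 2, the median of the fatty acid arm was 0.48, 8 of its 10 genes were above 0, and Acaca was called higher at 0.86 (adjusted p = 0.0235 by edgeR). Acaca ran from 23.4 over 35.6 to 51.0 CPM in COX10 KO muscles and had 53.5 CPM in CTL 2 and 15.3 to 28.2 CPM in the other CTL muscles. Without CTL 2 and COX10 KO 4 together, also picked with the data in view, the median was 0.28, with Mvd higher and Srebf1 lower as before. The interaction of genotype and sex in muscle called 0 members by edgeR, with 4 higher and 0 lower at an unadjusted p under 0.05 and 0 calls by DESeq2. Of all genes, 0.0% were called, and 2.34% were higher and 1.47% lower at that unadjusted p.

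Of 15 further SREBP pathway genes tested in muscle, edgeR called 3 higher and 1 lower, beside the 6.9% and 7.43% of all genes given above. Mid1ip1, a partner of Thrsp that activates acetyl-CoA carboxylase, had 98.8 to 218 CPM in COX10 KO muscles and 9.04 to 43.9 CPM in CTL muscles (log2 fold change 2.38 ± 0.32, SE; adjusted p = 2.37e-04 by edgeR). Scap, the escort protein of SREBPs, and Npc1, which exports cholesterol from lysosomes, rose by 0.61 and 0.92 on the log2 scale (adjusted p = 0.0433 and 0.0445 by edgeR). Me1, the malic enzyme that supplies NADPH for lipid synthesis, was lower, at −0.77 on the log2 scale (adjusted p = 0.0310 by edgeR). The LXR and fasting lists had 1 call each among 7 and 9 tested genes. These were Nr1h3 (LXR-alpha) of the LXR list at −0.96 and Pdk4, a brake on glucose oxidation, of the fasting list at 2.61 (adjusted p = 0.0283 and 0.00345 by edgeR).

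In the same muscles, the summed level of 10 macrophage markers was 207 to 494 CPM in COX10 KO muscles and 107 to 323 CPM in CTL muscles, with all 7 tested markers above 0, and its part in these lists and in the members was not tested.

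Whether the genotype difference itself differed between liver and muscle was tested in 1 joint fit of all 32 libraries. Of 30 members tested, edgeR called 0 higher and 1 lower, Mvd, against 1.26% of all 15154 genes called higher and 1.52% called lower. Over all genes these were 191 higher and 231 lower, but 259 and 174 with RLE factors and 738 and 402 by DESeq2, where the median difference of all genes lay at 0.12 and 0.31 on the log2 scale, and Mvd was called lower under each. Mvd had 8.06 to 75.3 CPM in COX10 KO livers and 20.5 to 116 CPM in CTL livers, a log2 fold change of −1.02 in liver, where it was not called, and of 1.56 in muscle. The difference between the tissues was −2.65 ± 0.64 (SE; adjusted p = 0.0167 by edgeR, 0.00479 by DESeq2). Without both mismatched CTL livers the difference was −2.40 and no longer passed the test (adjusted p = 0.0545 by edgeR). Hmgcs1, Fdft1 and Msmo1 had differences of −1.26, −1.20 and −1.42 (adjusted p = 0.101, 0.0718 and 0.0647 by edgeR).

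In hypothalamus, the fitted log2 fold changes of the members lay between −0.55 and 0.27. Of 29 members tested, edgeR called 0 higher and 0 lower, with 0 at an unadjusted p under 0.05, and 0 calls by DESeq2. Of all 13504 genes, 0.0% were called, and 0.889% were higher and 0.674% lower at that unadjusted p. With the replicate number as a block, taken to pair these libraries, edgeR also called 0 members. At an unadjusted p under 0.05, 4 were lower under the block (Sc5d, Fads2, Srebf1 and Stard4). Of 14212 genes, 2 were called higher and 0 lower, and 695 were higher and 646 lower at that unadjusted p. The medians without the block were 0.00 for the sterol arm and −0.07 for the fatty acid arm. Stard4 had 13.2, 13.0, 9.91 and 8.02 CPM in COX10 KO hypothalami and 16.6, 13.2, 12.3 and 21.4 CPM in CTL hypothalami (log2 fold change −0.53 ± 0.25, SE; unadjusted p = 0.0570 by edgeR). Sc5d, which introduces the C5 double bond of sterols, had 22.8, 23.6, 26.4 and 30.5 CPM in COX10 KO hypothalami and 32.8, 28.2, 28.9 and 47.0 CPM in CTL hypothalami (log2 fold change −0.40 ± 0.21, SE; unadjusted p = 0.0790 by edgeR). The groups of both genes overlapped, CTL mouse 4 was the highest for each, and for all 4 numbers the COX10 KO value was below that of the CTL mouse of the same number. Under the block, the unadjusted p was 0.0398 for Stard4 and 0.0105 for Sc5d (adjusted p = 0.522 and 0.467 by edgeR).

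Fads2, named after its values were seen, was the only member whose groups did not overlap in hypothalamus, as for 0.733% of all genes with all COX10 KO below all CTL and 0.674% with all above. It had 61.5 to 74.7 CPM in COX10 KO hypothalami and 79.4 to 88.1 CPM in CTL hypothalami, at a log2 fold change of −0.25 (unadjusted p = 0.136 by edgeR, and 0.0282 with the block, adjusted p = 0.512). The summed level of 7 hepatocyte markers, of which 4 had counts in each genotype, was 3154 to 5272 CPM in COX10 KO hypothalami and 1232 to 2820 CPM in CTL hypothalami, with no overlap. Apob and Fgb of this set had 0 counts in both genotypes, as did Cps1 in COX10 KO and Serpina1a in CTL hypothalami. The sum thus rests on few genes and is no measure of hepatocytes there. The summed level of 7 oligodendrocyte markers was 4705 to 7519 CPM in COX10 KO hypothalami, 12617 CPM in CTL mouse 4 and 5225 to 6627 CPM in the other CTL hypothalami, and the part of both sets in these values was not tested. The genotype difference in liver against that in hypothalamus called 0 members by edgeR, with 2 lower and 0 higher at an unadjusted p under 0.05 and 0 calls by DESeq2. Of all genes, 0.0% were called, and 2.32% were higher and 1.63% lower at that unadjusted p. Of 17, 6, 7 and 6 tested genes of the further SREBP, ChREBP, LXR and fasting lists, 0 were called in hypothalamus by edgeR, with 1 lower at an unadjusted p under 0.05, Mlx of the ChREBP list at −0.56, and 0 called by DESeq2.

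**Figure D5:**
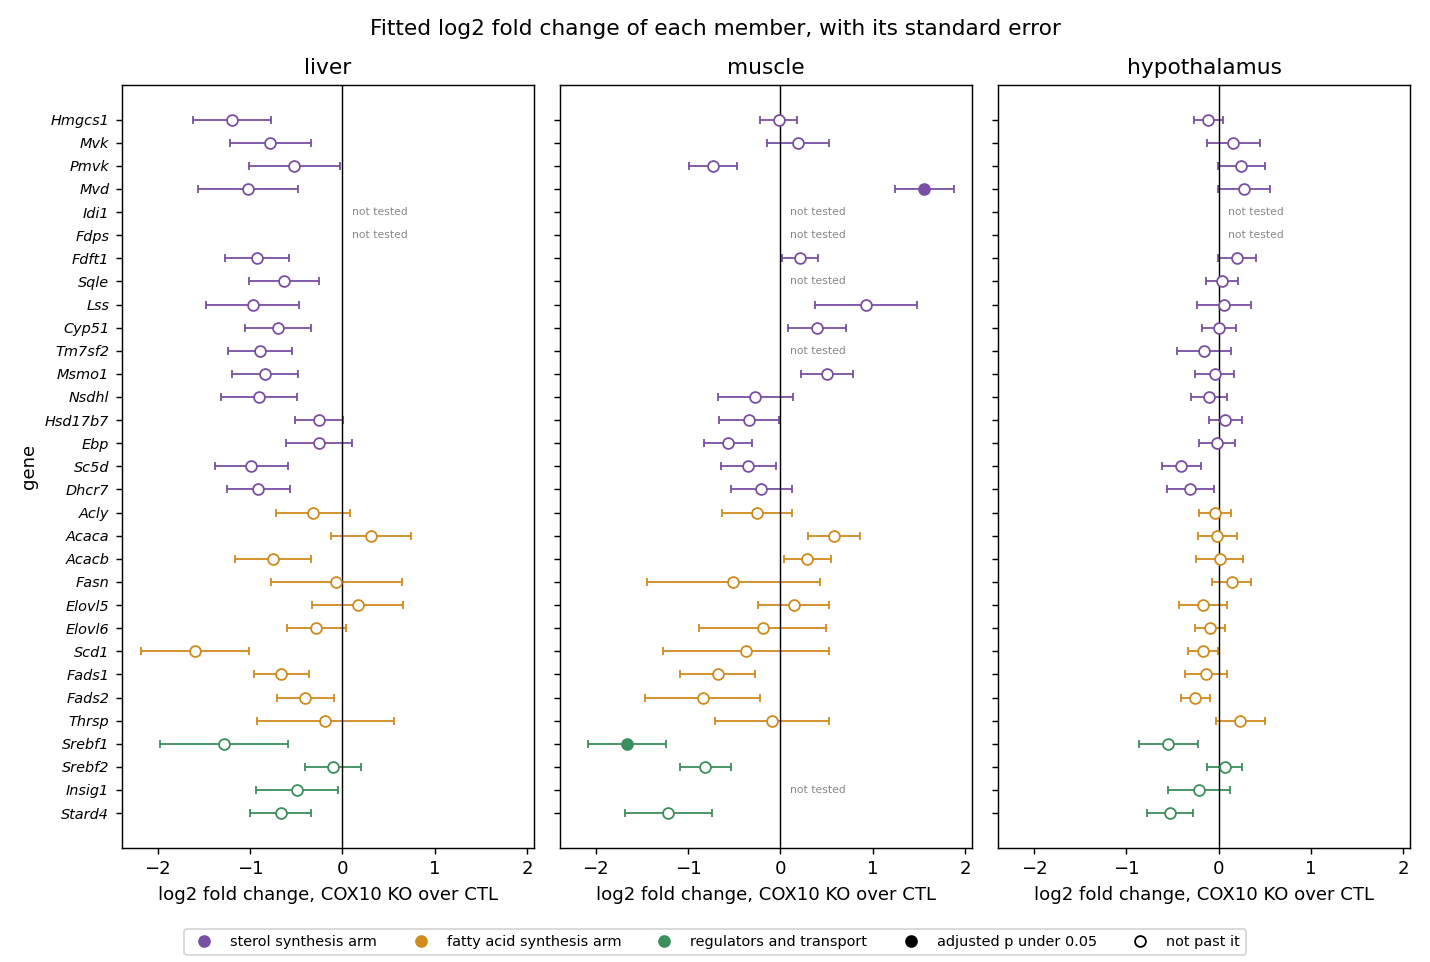
Fitted log2 fold change, COX10 KO over CTL, of each member in liver, muscle and hypothalamus, with its standard error. Filled points passed an adjusted p of 0.05, which only Mvd (1.56) and Srebf1 (−1.66) in muscle did, and the 15 tested sterol enzymes in liver lie left of 0.

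Most members were higher in CTL liver than in either of the other tissues. In the joint fit, 29 of 30 members were higher in CTL liver than in CTL muscle, against 26.4% of all genes, with log2 differences from 1.66 for Srebf2 to 6.60 for Fads2. The 30 include Idi1, Sqle, Tm7sf2 and Insig1, which did not pass the filter in muscle alone (Idi1 had 5 counts in the 6 CTL muscles and passed in no tissue alone) and entered the joint fit through the other tissues, so the count is a description. The exception was Acacb, the carboxylase isoform typical of muscle, at −0.82 ± 0.33 (SE; adjusted p = 0.0350 by edgeR), against 28.6% of all genes lower in liver. Against CTL hypothalamus, 29 of 30 were higher in CTL liver, compared with 29.1% of all genes, from 0.96 for Acaca to 5.91 for Thrsp. Srebf2 was lower in CTL liver, at −0.76 ± 0.27 (SE; adjusted p = 0.0126 by edgeR), against 38.8% of all genes, and this call was lost without the sex term (−0.45, adjusted p = 0.160). The call of Acaca against hypothalamus was lost by DESeq2, with RLE factors, without both mismatched CTL livers and without CTL hypothalamus 2, 3 or 4.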

How the data were processed

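Polyadenylated RNA of liver, calf muscle and hypothalamus was sequenced with a 3′ tag kit (QuantSeq FWD), and the values used are read counts per gene as the authors deposited them. To make them, the authors used BBDuk for trimming, STAR 2.5.0a for alignment (build GRCm38.p6) and HTSeq 0.6.1 for counting, while the annotation release and strand setting are not given in the sources used here. The kit's reads were counted without molecular identifiers in the sources used here, so limits set by a count of 0 cover counting error only.

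The 31 members and all lists were chosen with earlier results of these data known. Genes were filtered with filterByExpr, scaled by TMM and tested within a tissue by the quasi-likelihood test of edgeR 4.0.16 (R 4.3.3), with the labelled sex as a covariate in liver and muscle, where calls needed a p under 0.05 after Benjamini-Hochberg adjustment over all genes tested. Tissues were compared in 1 joint fit, and interactions with sex in a fit per tissue. SEs are the fold change divided by the root of F. Named were, in liver, the 4 sterol and 4 fatty acid genes of smallest p and all 4 regulators, in the other comparisons called members or else those of the 2 smallest p, and in each further list the 2 of smallest p, except that some results of the ChREBP list are not reported here. Names beyond these, such as Fasn, Thrsp, Acaca, Elovl5, Sc5d, Msmo1 and Nsdhl in liver and Hmgcs1, Mvk, Pmvk, Srebf2, Stard4, Acaca, Fasn and Scd1 in muscle, were added after their values were seen. DESeq2 1.42.0, other filters and scalings, no sex term, single sexes, a replicate block and left-out libraries were alternatives. The code was tested on simulated data.

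Mice with the same number may share a litter or day, so deviations from the group means were correlated between same-numbered COX10 KO and CTL libraries. In hypothalamus all 4 pairs had a correlation over 0.1 (0.813, 0.211, 0.408 and 0.316) and were taken as paired, and the block called no member there. However, COX10 KO 4 correlated more with a CTL library of another number (0.481), so the pairing is uncertain. In liver (−0.523 to 0.490) and muscle (−0.176 to 0.238) the numbers did not pair the libraries.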

Additional observations from a re-analysis of the deposited data

Results flagged for a closer look

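The difference between the genotype effects in liver and muscle was singled out for Mvd, at −2.65 on the log2 scale, because the joint fit's test of that difference passed its threshold, with values in liver and muscle as given above.

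Within single groups, 32 sets of libraries were checked for a value far from the others, and chance alone puts about 1 in 20 such sets past the limit used. In COX10 KO livers, mouse 3 had 72.0 CPM of Acacb, compared with 16.6 to 32.4 CPM in the other 5. In CTL livers, mouse 3 had 542 CPM of Fads2, compared with 146 to 242 CPM in the other 5.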

How the results depend on the processing

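Of 132 alternative values of the counts and arm medians that left no single library out, 120 stayed within their limits, as did 157 of 160 with 1 library left out, and of the values of single genes 153 of 161 and 188 of 192 kept their direction and side of the threshold. The limit was a fixed ratio for a count and the SD between mice for an arm median (0.58 for the sterol arm in liver). These limits are wide, and the liver sterol median stayed within its limit when it moved from −0.89 to −0.41. Member counts in liver and hypothalamus were 0 in the main fit and could only rise. The tallies are therefore a weak check. In liver, 1 member (Scd1) was called lower with no expression filter. Srebf2 in liver changed sign in females alone (0.0550) and without CTL 1, CTL 4 and COX10 KO 6 together (0.12), and ran from −0.32 to 0.0923 with 1 library left out. In muscle, 0 members were called higher and 0 lower where at least 10 counts were required in every library (neither Mvd nor Srebf1 was then tested), and likewise in males alone, where the fatty acid median was 0.85. Females alone had 0 lower calls. Over the alternatives that left no single library out, the fatty acid median in muscle ran from −0.95 to 0.85. With 1 library left out, 1 to 2 members were higher and 0 to 3 lower in muscle, the 2 further lower ones being Srebf2 and Pmvk without CTL 4. The difference between liver and muscle was called for 2 members by DESeq2 (Mvd and Msmo1), for 2 without muscle CTL 2 and COX10 KO 4 (Mvd and Lss) and for 0 without both mismatched CTL livers. The genotype-by-sex term in muscle called 3 members higher with no filter (Scd1, Fasn and Thrsp), against 115 of 21525 genes called higher and 46 lower. Muscle CTL 2, a labelled female, was the highest muscle for 9 of the 10 fatty acid genes, and its part in these calls was not tested. Among all genes in liver, 2 were called higher and 7 lower, compared with 23 and 39 by DESeq2 and 57 and 118 with no filter. DESeq2 moved the median of all genes to 0.10 in liver and −0.30 in muscle. The causes were not tested, except where fewer genes or libraries entered a fit.

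With the replicate number as a block, 0 members were called lower in muscle, where Srebf1 had −1.54 on the log2 scale (adjusted p = 0.0557 by edgeR). The pairing by number changed no other call among members. Whether library depth set which members could be called was not tested.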
